A study of Homo sapiens with 4 samples.

Results

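The genes described here encode the subunits and dedicated assembly factors of the mitochondrial respiratory chain and ATP synthase, and what was measured are their noncoding transcripts. The members are the listed Ensembl transcripts whose gene is protein-coding in GENCODE release 29 and is named NDUF, UQCR, ATP5 or COX with a digit, or is a succinate dehydrogenase gene (SDHA to SDHD, and the factors SDHAF1 to SDHAF4), CYC1 or OXA1L. These came to 326 transcripts of 84 genes, out of 106179 transcripts and 13417 protein-coding genes with a transcript in the deposited table. Release 29 has 114 genes that meet the rule, and the others, among them SDHD, COX5A and UQCRFS1, are not analysed here. The study compared wild-type HepG2 cells with HepG2 cells resistant to oxaliplatin, a platinum drug that binds DNA. HepG2 is an established human line, labelled as hepatocellular carcinoma. Each group had 2 libraries of total RNA, all cells were grown in DMEM with serum and antibiotics, and the labels list no treatment for either group, so the resistant cells carry no stated drug exposure at harvest. The labels say neither how many resistant clones were kept nor whether replicates are separate cultures, so a p-value reflects the spread of these libraries alone, and that spread may be technical.

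The respiratory chain passes electrons from NADH and succinate to oxygen through protein complexes of the inner mitochondrial membrane, and the proton gradient built on the way drives ATP synthase. Complex I takes electrons from NADH, complex II is succinate dehydrogenase of the citric acid cycle, complex III passes electrons from ubiquinol to cytochrome c, and complex IV reduces oxygen. Most subunits are encoded in the nucleus, and assembly factors help to build each complex without staying in it. The same nuclear genes also give transcripts that keep an intron or are spliced without an open reading frame, which annotations class as retained intron or processed transcript.

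The deposited counts per library lay between 34898860 and 44063444, of which 253 to 269 member transcripts took a count above 0 in each library. A count of 0 allows up to 3 counts in that library, which covers counting error only. Hepatocyte genes were nearly absent from the table as noncoding transcripts: of 20 markers, 14 had a listed transcript, 11 of these (among them AFP, TTR, TF and SERPINA1) had a count of 0 in all 4 libraries, and the summed level was 0.230 to 1.77 CPM (counts scaled to the library total). The mRNAs by which liver cells are usually recognised are not analysed here, so the label HepG2 could not be checked on them. All 8 fibroblast and stromal markers were listed and summed to 115 and 135 CPM in wild type, beside 154 and 289 in resistant cells, mostly from FAP. Of the 5 that were tested, 2 had a higher and 3 a lower mean in resistant cells, with a median log2 fold change of -0.59 and 0 called. PDGFRB was among the lower ones, with 106 and 160 counts against 44 and 11 and a log2 fold change of -2.68 (edgeR adjusted p 0.556). The part of these markers in any result was not tested. Of the endothelial markers, ERG had 0 counts in both wild-type libraries and 450 and 270 in the resistant ones, KDR had a count of 0 throughout, and the 4 listed blood markers summed to at most 0.621 CPM. In bulk RNA, fewer cells with a transcript and less of it per cell cannot be told apart.

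Of the 326 member transcripts, 177 were classed as retained intron, 147 as processed transcript and 2 as targets of nonsense-mediated decay. Their median length was 633 bases, and a median of 66.0% of their bases lay inside exons of the same gene's coding transcripts (55.4% for retained introns and 79.5% for processed transcripts). For 39 transcripts all bases lay inside such exons. Reads from those bases could come from the mRNA, which is not analysed here, and their part in the counts was not tested. In addition, 106 of the transcripts overlapped an exon of another gene and 39 of the genes have a pseudogene named after them, so their counts may be shared with those copies. A count of 0 in every library was found for 41 transcripts and for all transcripts of COX4I2 and COX6A2, the isoforms of subunits IV and VIa known from lung and from heart and muscle.

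Member transcripts took 0.717% and 0.894% of all counts in the wild-type libraries and 0.788% and 0.934% in the resistant ones. The groups overlapped, with 0.806% ± 0.125 and 0.861% ± 0.104 (SD, n = 2 each), and the order of the means turned without wild-type library 1 or without resistant library 2. The make-up of this total differed more. Retained-intron transcripts held 59.9% and 62.1% of the member counts in the wild-type libraries and 50.5% and 36.2% in the resistant ones, or 61.0% ± 1.56 against 43.3% ± 10.1 (SD, n = 2). The groups did not overlap, and the resistant libraries differed from each other by more than the wild-type ones. Processed transcripts took up the difference, with 38.4% ± 2.11 of the member counts in wild type, beside 56.1% ± 9.53 in resistant cells. Over all protein-coding genes of the table the retained-intron share was 65.1% ± 0.585 and 65.5% ± 1.06. That share pools 52631 transcripts, and how far it varies between sets of 84 genes was not measured. The lower share in the members was partly 1 transcript of NDUFB5 in resistant library 2, since without NDUFB5 the difference went from -17.7 to -14.8 percentage points, and without NDUFB5 and SDHB it was -13.2. No test was made of this share.

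Summed by role and set against the library total, transcripts of the complex I core subunits came to 338 and 526 CPM in wild type, beside 570 and 693 in resistant cells. The complex IV assembly factors with the insertase came to 609 and 554 CPM against 610 and 682. In these groups both resistant libraries were above both wild-type ones, by a margin of about 1 CPM in the latter. Such an order is common in these data: single gene sums did not overlap for 43% of all tested genes (22.5% higher and 20.5% lower). ATP5S, which was kept apart from the subunits, was lower in both resistant libraries, and the sums of the other role groups overlapped: ATP synthase genes had the highest, at 2267 to 3002 CPM, and complex I assembly factors and complex III subunits the lowest, at 114 to 213 and 197 to 258 CPM.

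**Figure D1:**
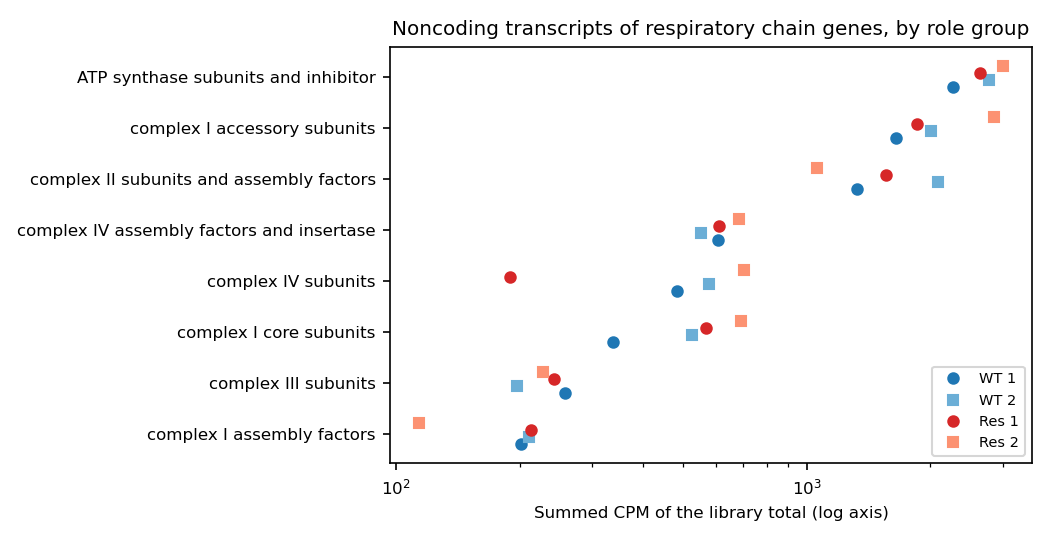
Summed CPM of the library total (log axis) for each role group, with 1 marker per library: blue for wild type (WT), red for resistant (Res), circles for library 1 and squares for library 2. The complex I core subunits run from 338 to 693 CPM with both resistant libraries highest, and the complex IV subunits have 1 resistant library far below the rest, at 189 CPM.

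Counts summed per gene were compared between the groups with edgeR's quasi-likelihood test across 13745 genes. Of the 84 member genes, 76 passed its filter on low counts. None was called at an adjusted p of 0.05 (edgeR, lowest adjusted p 0.323), as was the case for 0% of all genes tested. At an unadjusted p under 0.05 there were 4 members higher and 2 lower in resistant cells, where 8.67% of all tested genes were (4.74% higher and 3.93% lower). The groups did not overlap for 21 members on the higher side and 13 on the lower side, against 43% of all tested genes (22.5% higher and 20.5% lower). The median log2 fold change of the tested members was 0.13, beside 0.01 over all tested genes. DESeq2 called 3 member genes (SDHC, ATP5F1B and COX7A2L), with 4.95% of its genes called, and limma-voom called 0.

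Complex I is the largest of the complexes, and its core subunits carry the flavin, the iron-sulfur clusters and the quinone site. Of 7 core subunit genes tested, 5 had a higher and 2 a lower mean in resistant cells, with a median log2 fold change of 0.23 and 0 called. With library totals these counts were 6 and 1, and without wild-type library 1 they were 3 and 4. NDUFS3, a core subunit of the peripheral arm, had 2881 and 5043 counts in the wild-type libraries against 7755 and 10852 in the resistant ones, giving a log2 fold change of 0.83 (edgeR adjusted p 0.703). After scaling for library size the groups did not overlap for NDUFS3.

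NDUFV1, the core subunit that binds NADH and the flavin, was the member gene with the most listed transcripts, 14. It was picked for transcript shares that separate by group, so that separation restates the rule. ENST00000526169, which is spliced from coding exons only, had a count of 0 in both wild-type libraries and 98 and 78 in the resistant ones, which is at least 22.6-fold higher. ENST00000527923, which keeps an intron, had 48 and 31 counts in the wild-type libraries against 249 and 287 in the resistant ones. Against this the main transcript of the gene, ENST00000526770, had 550, 556, 614 and 572 counts in the same order. As a share of the gene's counts it went from 59.2% and 52.7% in wild type to 46.6% and 43.5% in resistant cells. Neither of the first pair passed the edgeR test of transcript use, with an adjusted p of 0.1004 for ENST00000526169.

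Accessory subunits of complex I surround the core and carry no redox centre. Of 19 tested, 12 had a higher and 7 a lower mean in resistant cells, with a median log2 fold change of 0.16 and 0 called. NDUFC1, an accessory subunit of the membrane arm and one of the highest per length, had 8210 and 10355 counts in the wild-type libraries against 14278 and 15092 in the resistant ones, giving a log2 fold change of 0.27 (edgeR adjusted p 0.843). Nearly all of these, 95.3% to 98.9%, lay on ENST00000394225, whose exons overlap those of NAA15. NDUFB5, another membrane-arm subunit, had 1512 and 4616 counts in the wild-type libraries against 1214 and 53895 in the resistant ones. The high value was 1 transcript in 1 library: ENST00000473500 had 52835 counts in resistant library 2 and 0 in the other 3. The log2 fold change of NDUFB5 was 2.77 with all libraries and -1.76 without resistant library 2.

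NDUFA9, an accessory subunit beside the quinone site, gave 1 of the calls for transcript use. Its transcript ENST00000539573 (chr12:4649095-4668538 on GRCh38, plus strand, 500 bases in 5 exons) had 0 counts in both wild-type libraries and 91 and 120 in the resistant ones, which is at least 27.2-fold higher. It made up 2.03% and 3.67% of the gene's counts in resistant cells and changed against the rest of its gene with an edgeR adjusted p of 0.0245. The transcript joins the first exon of the mRNA to the fourth and skips 2 exons, 269 bases, between them. The line shows the join, with the bases on either side of it in capitals (chr12:4649145-4657778, plus strand, spliced, from the GENCODE release 29 transcripts).
NDUFA9 noncoding: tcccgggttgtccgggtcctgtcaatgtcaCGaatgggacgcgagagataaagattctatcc
Exons of this transcript overlap 2 other annotated genes, and the call was lost when any of the libraries was left out (edgeR adjusted p 0.0982 to 0.399) and without the filter on low counts (0.138).

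Complex I assembly factors named NDUFAF were the role group in which no mean was higher. Of 7 tested genes, 0 were higher and 7 lower in resistant cells. Their median log2 fold change was -0.69, with NDUFAF8 at -0.01. With library totals in place of TMM factors 1 was higher and 6 lower, and without wild-type library 1 there were 2 and 5. In 3 of the 7 the groups did not overlap, all on the lower side, and 0 were called. Of all tested genes 43% did not overlap, 20.5% on the lower side. Assembly factors outside the naming rule, taken over all complexes, went both ways. Of 24 tested, 13 were higher, with TIMMDC1 of complex I among them, and 11 lower. NDUFAF6 had 628 and 439 counts in the wild-type libraries against 351 and 261 in the resistant ones, or 18.7 ± 3.61 against 8.24 ± 1.56 CPM (here after TMM scaling, as for all gene and transcript means with an SD; n = 2). Its log2 fold change was -1.18 ± 0.37 (SE), with an edgeR adjusted p of 0.524. NDUFAF4 had 464 and 1132 counts against 237 and 372, giving a log2 fold change of -1.80 (edgeR adjusted p 0.597), which was -0.93 without wild-type library 2. NDUFAF5, which hydroxylates a core subunit and had the highest level per length of the group, had 3246 and 3318 counts against 5771 and 2405, so that the resistant libraries lay on both sides of the wild-type ones. NDUFAF2, which acts late in assembly, had 1814 and 271 counts in the wild-type libraries against 949 and 609 in the resistant ones. Its log2 fold change of -0.77 became 1.07 without wild-type library 1. For NDUFAF5 the sign also turned, from -0.08 to 0.41, without resistant library 2.

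**Figure D2:**
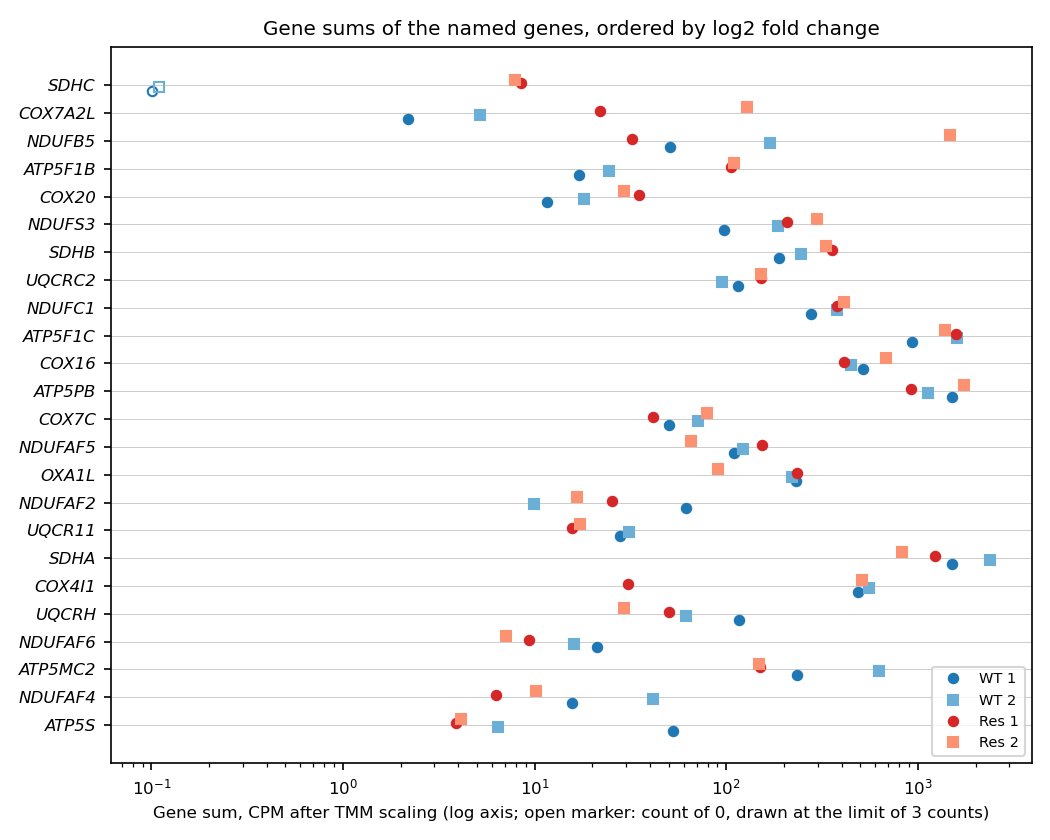
Gene sums of the named member genes in CPM after TMM scaling (log axis), 1 marker per library, ordered by log2 fold change from highest at the top; open markers are counts of 0 drawn at the limit of 3 counts. ATP5F1B has both resistant libraries close together at about 108 CPM and well above wild type, while NDUFB5 and COX4I1 have 1 resistant library apart from the other 3.

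Complex II oxidises succinate: SDHA carries the flavin, SDHB the iron-sulfur clusters, and SDHC anchors both in the membrane. SDHA was the most abundant gene of this group per length, with 44597 and 64848 counts in the wild-type libraries against 46416 and 30138 in the resistant ones. Scaled for library size both resistant libraries were lower, 1945 ± 618 against 1029 ± 291 CPM (SD, n = 2), with a log2 fold change of -0.92 (edgeR adjusted p 0.653). SDHC had a single transcript with counts, ENST00000515731 (chr1:161314381-161328495, plus strand), with 0 and 0 counts in the wild-type libraries against 319 and 289 in the resistant ones. That is at least 77.4-fold higher on the scale of gene sums, and the adjusted p was 0.323 with edgeR and 1.1e-07 with DESeq2.

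SDHB (chr1:17018722-17054170, minus strand) held the call of lowest p in the test of transcript use. Its processed transcript ENST00000485515, 699 bases in 7 exons, had 0 counts in both wild-type libraries and 9098 and 9675 in the resistant ones, which is at least 2416-fold higher. It made up 68.3% and 80.0% of the gene's counts in resistant cells, and rose against the rest of its gene with an edgeR adjusted p of 0.000178. Tested by itself, ENST00000485515 was not called (edgeR adjusted p 0.329). The main wild-type transcript, ENST00000466613, which ends in a kept intron, had 4662 and 5131 counts in the wild-type libraries against 2045 and 1144 in the resistant ones, or 84.0% and 77.2% against 15.4% and 9.46% of the gene. Another transcript, ENST00000475506, had 726, 1339, 1843 and 1100 counts in the same order and no such difference. The gene sum was 5547 and 6649 counts against 13314 and 12094, giving a log2 fold change of 0.67 ± 0.26 (SE), at an edgeR adjusted p of 0.627.

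The transcript ENST00000485515 differs from the SDHB mRNA ENST00000375499 at its ends and at a junction. All of its bases lie inside coding exons. It lacks the last of the mRNA's 8 exons. ENST00000485515 shares 274 bases with ENST00000466613, 39.2% of its own length, so most bases of each are not in the other. The part of the mRNA in these counts was not tested.

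Complex III passes electrons on to cytochrome c. Of 7 tested genes, 4 had a higher and 3 a lower mean in resistant cells, with a median log2 fold change of 0.02 and 0 called, and without wild-type library 2 the counts were 2 and 5. UQCRC2, a core protein on the matrix side, had 3391 and 2578 counts in the wild-type libraries against 5734 and 5581 in the resistant ones, 105 ± 14.1 against 153 ± 0.0518 CPM (SD, n = 2; edgeR adjusted p 0.672). UQCRH, the hinge protein, had 3466 and 1682 counts against 1890 and 1071, giving a log2 fold change of -1.17 (edgeR adjusted p 0.665). UQCR11, a small subunit, had 829 and 851 counts against 586 and 632, or 29.6 ± 2.28 and 16.4 ± 1.19 CPM, with a log2 fold change of -0.85 ± 0.29 (SE), at an edgeR adjusted p of 0.571. In all 3 the scaled values of the groups did not overlap, higher in resistant cells for UQCRC2 and lower for the other pair. UQCR11 was named for its small p. Over the 7 tested genes the groups did not overlap for 2 on the higher and 3 on the lower side, beside 22.5% and 20.5% of all tested genes.

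Of 13 listed genes of complex IV subunits 7 passed the filter, of which 5 had a higher mean in resistant cells and 2 a lower one. Without resistant library 2, 3 were higher and 6 lower among those that then passed. COX4I1, which encodes an early-joining nuclear subunit, had 14420 and 15063 counts in the wild-type libraries against 1148 and 18682 in the resistant ones. Its transcript ENST00000564648 alone accounted for this, with 13935 and 14613 counts against 422 and 17909, while ENST00000568339 had 263, 270, 468 and 418 counts in the same order. The log2 fold change of COX4I1 was -0.94 with all libraries, -0.03 without resistant library 1 and -4.08 without resistant library 2. COX7C, a small membrane subunit, had 1492 and 1939 counts against 1555 and 2907, giving a log2 fold change of -0.01. COX7A2L, known for its role in joining complexes III and IV into supercomplexes, had 65 and 141 counts in the wild-type libraries against 823 and 4722 in the resistant ones. Its log2 fold change was 4.35 ± 1.18 (SE), with an edgeR adjusted p of 0.461 and a DESeq2 adjusted p of 0.00144. All its counts lay on ENST00000482463, most of them in resistant library 2, and without that library the log2 fold change was 2.58.

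Of the 7 tested complex IV assembly factors and the insertase, 4 had a higher and 3 a lower mean in resistant cells. COX20, a chaperone of a mitochondrially encoded subunit, had 345 and 493 counts in the wild-type libraries against 1315 and 1068 in the resistant ones, 14.9 ± 4.56 against 32.1 ± 4.11 CPM (SD, n = 2). Its log2 fold change was 1.11 ± 0.38 (SE), with an edgeR adjusted p of 0.568. COX16, an assembly factor and the gene of highest level per length in the group, had 15366 and 12189 counts against 15387 and 24846. At least 96.1% of them in each library lay on ENST00000557612, whose bases are all shared with coding exons and which overlaps the read-through gene SYNJ2BP-COX16.

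OXA1L (chr14:22766522-22773041, plus strand), the insertase that places membrane proteins in the inner membrane, had gene sums that overlapped between the groups, and a different main transcript in each. The sums were 6831 and 6031 counts in the wild-type libraries against 8763 and 3297 in the resistant ones, giving a log2 fold change of -0.49 (edgeR adjusted p 0.858). ENST00000495424 had 6233 and 5605 counts in wild type, 91.2% and 92.9% of the gene, and 0 in both resistant libraries, at least 2551-fold lower. It fell against the rest of its gene with an edgeR adjusted p of 0.000570, and the call was lost without resistant library 1 (0.213) or resistant library 2 (0.203). ENST00000481218 was the main transcript in resistant cells, with 458 and 341 counts in the wild-type libraries against 8618 and 3095 in the resistant ones, or 98.3% and 93.9% of the gene.

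The OXA1L pair share 1583 bases, 94.3% of ENST00000495424 and 99.2% of ENST00000481218, and both keep the same 182-base intron. They differ at both ends and by 6 bases at 1 acceptor. The lines show this acceptor, with the 6 bases in capitals in the transcript that keeps them and the bases on either side of the junction in capitals in the other (chr14:22768142-22769826 and chr14:22768141-22769827, plus strand, spliced, GRCh38, GENCODE release 29).
OXA1L ENST00000481218: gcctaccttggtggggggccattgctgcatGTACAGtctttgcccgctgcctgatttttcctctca
OXA1L ENST00000495424: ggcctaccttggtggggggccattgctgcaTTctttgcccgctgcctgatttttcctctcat
The 6 bases end in AG, the letters that close an intron at an acceptor. The intron that both transcripts keep, and that the mRNA ENST00000285848 removes, is shown with its 182 bases in capitals (chr14:22770259-22770480, plus strand).
OXA1L kept intron: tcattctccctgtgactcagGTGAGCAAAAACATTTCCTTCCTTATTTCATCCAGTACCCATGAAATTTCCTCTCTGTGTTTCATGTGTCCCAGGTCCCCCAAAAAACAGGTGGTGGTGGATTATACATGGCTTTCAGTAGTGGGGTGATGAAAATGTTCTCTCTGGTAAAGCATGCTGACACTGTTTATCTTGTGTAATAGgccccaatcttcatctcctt
Only 96 bases of the first and 13 of the second are not shared, and how far the assignment of shared reads set these counts was not tested.

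ATP synthase genes were the largest group in counts. Of 16 tested, 12 had a higher and 4 a lower mean in resistant cells, with a median log2 fold change of 0.45 and 0 called. Without wild-type library 2 or without resistant library 1 these counts were 10 and 6, and without wild-type library 1 they were 13 and 3. The highest per length were ATP5F1C, the rotating gamma subunit, and ATP5PB, the b subunit of the peripheral stalk, at a mean of 1245 and 1114 CPM per kilobase over the 4 libraries. ATP5F1C had 27539 and 43677 counts in the wild-type libraries against 59707 and 50391 in the resistant ones, giving a log2 fold change of 0.23 (edgeR adjusted p 0.906). ATP5PB had 44307 and 30797 counts against 34420 and 63458, giving a log2 fold change of 0.01 (edgeR adjusted p 0.997). The groups overlapped for both. ATP5MC2, a gene of the c-ring, had 6934 and 17153 counts in the wild-type libraries against 5655 and 5406 in the resistant ones, giving a log2 fold change of -1.54 (edgeR adjusted p 0.607). Its wild-type libraries differed from each other more than the resistant ones, and without wild-type library 2 the value was -0.65. ATP5S, which encodes ATP synthase coupling factor B, had 1554 and 175 counts against 146 and 151, so its log2 fold change of -2.88 became -0.68 without wild-type library 1.

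ATP5F1B (chr12:56638175-56646068, minus strand), the catalytic beta subunit, had the lowest p of a gene sum among the members with counts in all libraries (edgeR unadjusted p 0.00243). It had 504 and 666 counts in the wild-type libraries against 3963 and 4036 in the resistant ones, 20.8 ± 5.25 against 108 ± 3.42 CPM (SD, n = 2). Its log2 fold change was 2.38 ± 0.32 (SE), 5.20-fold, with an edgeR adjusted p of 0.323 and a DESeq2 adjusted p of 1.85e-07. The difference was in 1 of the 2 transcripts with counts. ENST00000551182 had 109 and 168 counts in the wild-type libraries against 3348 and 3472 in the resistant ones, or 21.6% and 25.2% against 84.5% and 86.0% of the gene. ENST00000550162 had a log2 fold change of 0.02, with 395 and 498 counts against 615 and 564, and the pair share 0 bases. Neither was called in the test of transcript use (edgeR unadjusted p 0.185 and 0.105). ENST00000551182 is 457 bases in 2 exons and starts in an intron of the gene, and its first 111 bases are intron sequence, shown in capitals with the coding exon that follows (chr12:56639278-56639418, minus strand, GRCh38, GENCODE release 29).
ATP5F1B noncoding: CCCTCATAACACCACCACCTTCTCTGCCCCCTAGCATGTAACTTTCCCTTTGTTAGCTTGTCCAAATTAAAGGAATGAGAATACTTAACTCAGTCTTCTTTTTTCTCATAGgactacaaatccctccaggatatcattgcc
The capitals end in the AG of the acceptor at which the mRNA is spliced. The other 75.7% of this transcript lies in coding exons.

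ATP5F1C also had a transcript called in the test of use. ENST00000465936 (chr10:7788179-7807793, plus strand, 292 bases in 4 exons) had 0 counts in both wild-type libraries and 211 and 518 in the resistant ones, which is at least 94.5-fold higher, and changed against the rest of its gene with an edgeR adjusted p of 0.00588. It made up 0.353% and 1.03% of the gene's counts in resistant cells and skips 6 exons of the mRNA. The call was lost without wild-type library 1 (edgeR adjusted p 0.154), wild-type library 2 (0.216) or resistant library 2 (0.0841). The main transcript ENST00000493053 had 13153 and 29558 counts in the wild-type libraries against 44075 and 38214 in the resistant ones, and ENST00000460820 had 3883 and 4702 against 1448 and 2449. The kept-intron transcript ENST00000472202 had 8764 and 6480 counts against 9594 and 5762. After scaling, the groups did not overlap for ENST00000460820 and did for the other pair.

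Tested one by one across 42393 transcripts, 250 member transcripts passed the filter and 0 were called (edgeR, lowest adjusted p 0.329), as were 0% of all transcripts tested. At an unadjusted p under 0.05 there were 12 higher and 5 lower, against 7.74% of all (4.56% and 3.18%). The groups did not overlap for 59 transcripts on the higher side and 44 on the lower side, beside 40.3% of all (21.4% and 18.9%). DESeq2 called 15 member transcripts, with 6.58% of its transcripts called, and 3 of the 15 had counts in 1 library only; limma-voom called 0. Counts of 0 in both wild-type libraries and above 0 in both resistant ones were found for 9 member transcripts, and the reverse for 2, ENST00000495424 of OXA1L and ENST00000554438 of ATP5S (1443 and 50 counts in wild type). These were 2.76% and 0.613% of the 326 members, beside 1.6% and 0.7% of all listed transcripts. Among the lower transcripts of smallest p were also ENST00000464154 of ATP5PB, with 4116 and 2758 counts against 1580 and 1617, and ENST00000493806 of UQCRC1, a core protein of complex III, with 12 and 22 against 5 and 6. In both the groups did not overlap (edgeR adjusted p 0.414 and 0.673).

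The test of transcript use asks whether a transcript's fold change differs from that of its gene, and covered 234 member transcripts of 60 genes. It called 4, where 0.836% of all 31235 transcripts so tested were called: 3 were higher (0.551% of all were) and 1 was lower (0.285%). At an unadjusted p under 0.05 there were 7 higher and 4 lower, against 3.82% of all (2.45% and 1.37%). The calls are the transcripts of SDHB, NDUFA9 and ATP5F1C on the higher side and that of OXA1L on the lower side. ENST00000485515 of SDHB was called under each of the alternatives tried (edgeR adjusted p 0.000175 to 0.0369). In all 4 the count was 0 in both libraries of 1 group, so each passed the filter on low counts only through the group where it was high. Tested by themselves, these 4 were not called (edgeR adjusted p 0.329 to 0.335). In those of SDHB and OXA1L the transcript was the main one of its gene in the other group, and in those of ATP5F1C and NDUFA9 it was a minor one.

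**Figure D3:**
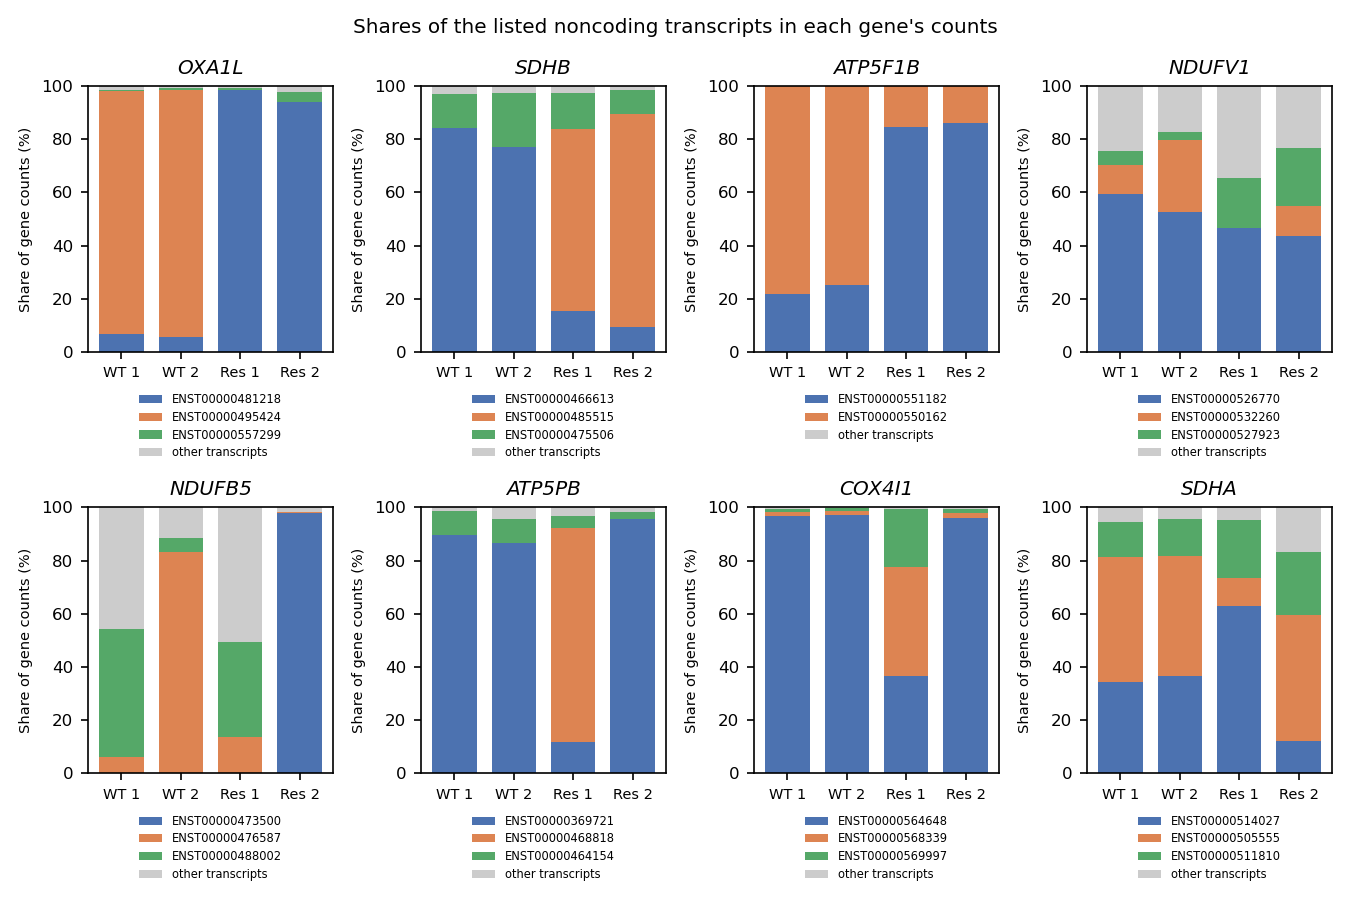
Share of each gene's counts held by its listed transcripts, 1 bar per library, with the 3 transcripts of highest share in colour and the others in grey. In the upper row the bars of a group are more alike than those of different groups, with SDHB ENST00000485515 at 0% in wild type, beside 68.3% and 80.0% in resistant cells; in the lower row 1 resistant library differs from the other, and for NDUFB5 the wild-type libraries do too.

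For 37 genes with at least 500 counts in every library and 2 or more listed transcripts, the make-up of the counts was compared library by library, as the share that would have to move from one transcript to another to make them equal. In 4 genes the smallest distance between a wild-type and a resistant library exceeded both distances within groups, or 10.8%, close to the 9.41% of the 4122 genes of the whole table that met the same minimum. The distance between the group means was 92.3 percentage points in OXA1L, 74.2 in SDHB, 61.8 in ATP5F1B and 29.4 in NDUFV1. Over the 37 genes the median distance was 7.97 points within the wild-type pair, 11.7 within the resistant pair and 14.1 between group means. The same transcript led in all 4 libraries in 21 genes.

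**Figure D4:**
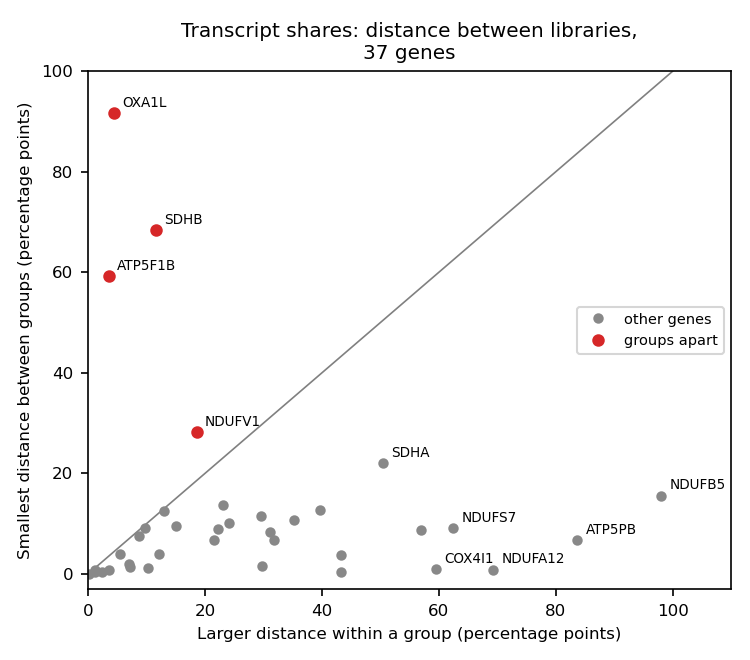
For each of 37 genes, the larger of the distances between libraries of the same group (horizontal axis) against the smallest distance between libraries of different groups (vertical axis), in percentage points of the gene's counts; the line marks equality. OXA1L, SDHB, ATP5F1B and NDUFV1 (red) lie above the line and by the rule they were picked for that, while NDUFB5 and ATP5PB lie far to the right.

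Libraries of the same group also exchanged transcripts. In 7 of the 37 genes the distance within a pair was over 50 points, in 2 genes within the wild-type pair and in 6 within the resistant pair. In ATP5PB, ENST00000369721 had 39663 and 26671 counts in the wild-type libraries against 4118 and 60703 in the resistant ones, and ENST00000468818 had 27606 counts in resistant library 1 and 0 in the other 3. The second lies wholly inside the first, sharing all of its 859 bases, and the assignment of reads between them was not tested. In SDHA, ENST00000514027 had 15290 and 23648 counts in the wild-type libraries against 29143 and 3713 in the resistant ones, while ENST00000505555 had 21061 and 29285 against 5035 and 14268. In NDUFS7, a core subunit of complex I, ENST00000538929 had 1223 and 0 counts in the wild-type libraries against 0 and 5182 in the resistant ones. In NDUFA12, an accessory subunit, ENST00000550187 had 906 and 315 counts in the wild-type libraries against 1650 and 0 in the resistant ones. A pair of libraries with 0 and over 1000 counts was found for 2 member transcripts in wild type and for 5 in resistant cells. That is the spread the calls of SDHB and OXA1L above stand against. The called transcripts of ATP5F1C and NDUFA9 had under 1000 counts in each library, and such pairs at their level were not counted.

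**Figure D5:**
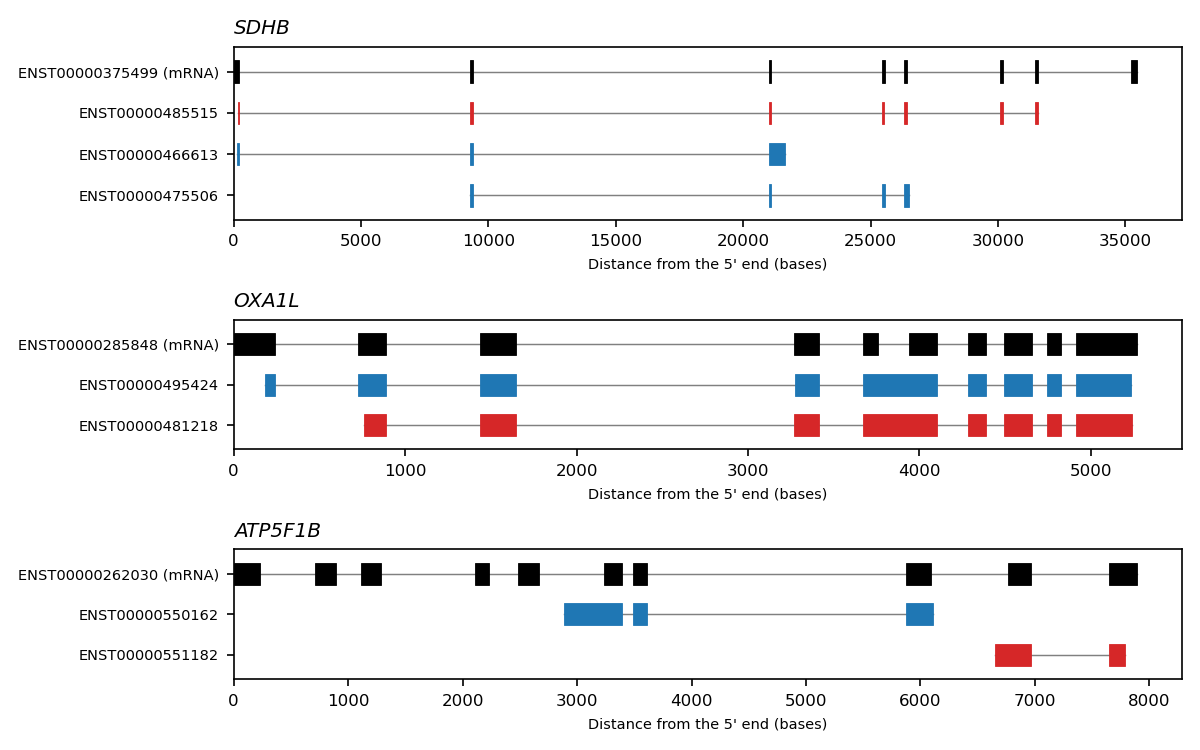
Exons (boxes) and introns (lines) of the main SDHB, OXA1L and ATP5F1B transcripts, drawn to scale in bases from the 5' end, with the mRNA in black, transcripts of higher share in resistant cells in red and of lower share in blue. The red SDHB transcript has 7 exons against 8 in the mRNA, the OXA1L pair share nearly all exons, and the ATP5F1B pair share none.

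Genes that serve the respiratory chain without being members were followed in 3 lists, and none of their genes was called (edgeR, adjusted p of 0.05). Of 24 tested assembly factors outside the naming rule, 13 had a higher and 11 a lower mean in resistant cells, with a median log2 fold change of 0.17. TIMMDC1, an assembly factor of complex I, had 0 counts in both wild-type libraries and 498 and 947 in the resistant ones, and ATPAF1, which helps to assemble the catalytic part of ATP synthase, had 1528 and 1353 against 690 and 923. The highest per length were COA1, of complex IV assembly, with 4891 and 12689 counts against 4212 and 4407, and UQCC1, of complex III assembly, with 2516 and 3725 against 4487 and 2936. Of 17 tested genes of electron carriers and ubiquinone synthesis, 6 were higher and 11 lower, with a median of -0.16, and COQ4 of ubiquinone synthesis had 105 and 131 counts against 506 and 689. ETFA, the electron transfer flavoprotein subunit with the highest level per length there, had 49159 and 54117 counts in the wild-type libraries against 48293 and 54365 in the resistant ones, and GPD2, a glycerol phosphate dehydrogenase of the inner membrane, had 2069 and 2235 against 2792 and 4676. Of 23 tested genes of mitochondrial transcription and translation, 17 were higher and 6 lower, with a median of 0.40 beside 0.01 over all tested genes. LRPPRC, which stabilises mitochondrial mRNAs, had 1442 and 1099 counts against 3559 and 2881 (edgeR adjusted p 0.502). TUFM, the mitochondrial elongation factor and highest per length in the list, had 651 and 6376 counts against 4714 and 6097, so 1 wild-type library was apart. NRF1, a transcription factor of respiratory genes, had 1006 and 1897 counts against 3507 and 2618. At an unadjusted p under 0.05 the 3 lists held 1 higher and 2 lower, 1 higher and 0 lower, and 1 higher and 0 lower genes. Of all tested genes, 4.74% were higher and 3.93% lower at that threshold. The lower genes of the first list were ATPAF1 and TMEM186, the latter with 89 and 22 counts in the wild-type libraries against 0 and 3 in the resistant ones.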

How the data were processed

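The deposited table gives estimated counts, as whole numbers, for each transcript in each library. This unit was read from the values. Aligner, counter and annotation: not given in the sources used here. Per the submitters' processing notes the build was mm9, a mouse assembly, while 103347 identifiers are human Ensembl transcripts, of which 84072 matched GENCODE release 29 (GRCh38), the source of all names, positions and sequences here. Counts were summed per gene over listed transcripts. Tests used edgeR 4.0.16 in R 4.3.3 (quasi-likelihood, TMM factors, filterByExpr with a minimum count of 10, diffSpliceDGE for transcript use). They were two-sided, with Benjamini-Hochberg adjustment over all features and a threshold of 0.05. The scripts were tested on simulated data with a smaller spread than here, where the common dispersion was 0.542 for genes and 0.941 for transcripts. False calls of the transcript use test at the spread of these data were not measured. CPM of genes and of transcripts are on separate scales, and levels per length are CPM of the library total per kilobase. DESeq2 1.42.0, limma-voom (limma 3.58.1), other scaling, no filter, a replicate block and leaving out each library were alternatives. An exact permutation test of 2 against 2 libraries cannot give a p under 0.33 and was not used. The main tests did not pair libraries by replicate number. Deviations of same-numbered libraries correlated at -0.02 for genes and 0.01 for transcripts over all tested features. Whether same-numbered libraries share a culture or batch was not tested.

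Members and lists were chosen with earlier results of these data known. Named genes are the 2 of highest level per length in each role group and the 5 of smallest p in each direction; named transcripts are the 6 of smallest p in each direction and the 5 of highest level per length; for transcript use they are calls and genes whose libraries separate by group. Transcripts that share a gene with these, and ERG, FAP, NDUFS7, NDUFA12 and the genes with an unadjusted p under 0.05 in the other lists, were chosen after their values were seen. The values of 1 gene that this rule names, and some sequences, are not reported here.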

Additional observations from a re-analysis of the deposited data

How the results depend on the processing

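With 2 libraries a group and a common coefficient of variation of 0.736 between libraries of a group at the gene level, edgeR called no member gene sum or single transcript. With DESeq2, 3 member genes and 15 member transcripts were called; the cause was not tested. The calls of transcript use numbered 4 with RLE factors, library totals or the replicate block and 3 without the filter, and 1 to 2 when a library was left out and fewer were fitted. With the replicate block, 44 of 45 results kept their sign and their side of the threshold. The ATP5PB gene sum turned its sign (log2 fold change -0.047). Some sizes moved: the log2 fold change of NDUFB5 went from 2.77 to 1.23 and that of COX4I1 from -0.94 to -2.05. Calls of transcript use over all transcripts fell from 261 to 76. For SDHB ENST00000485515 the edgeR adjusted p of use went from 0.000178 to 0.0303. The difference in the share of counts on the members, 0.0551 points, ranged from -0.0335 to 0.144 over the libraries left out and was -0.0181 without resistant library 2. Some log2 fold changes that did not pass any test turned their sign: ATP5PB with limma-voom (-0.050) and COX7C with library totals (0.036). Over the libraries left out, ranges that cross 0 were -0.11 to 0.67 for ATP5F1C, -0.51 to 0.40 for ATP5PB, -1.76 to 3.88 for NDUFB5, -0.82 to 0.41 for NDUFAF5, -1.55 to 1.07 for NDUFAF2, -0.23 to 0.49 for COX16, -1.33 to 0.051 for OXA1L and -0.55 to 0.39 for COX7C. For transcripts they were -3.40 to 0.54 for ATP5PB ENST00000369721 and -0.23 to 0.53 for COX16 ENST00000557612. The retained-intron share of the members was lower in resistant cells by 10.5 to 24.8 points when a library was left out, an alternative added after seeing the data, as were those without NDUFB5 and SDHB.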
